A study of Mus musculus with 9 samples.

Results

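Cytosolic ribosomal protein genes were examined in growing mouse oocytes. The members were the genes on chromosomes 1 to 19 whose symbol starts with Rpl or Rps and a number, with the common endings of paralogs, together with Rplp0, Rplp1, Rplp2 and Rpsa. The symbols alone chose 82 of the 28051 genes, 50 of the large and 32 of the small ribosomal subunit. Mitochondrial ribosomal protein genes carry other names and did not enter, and the X-linked Rpl10, Rpl36a, Rpl39 and Rps4x are given beside the members. RNA was pooled from 30 oocytes per sample, 10 of them 50–55 μm and 20 of them 55–60 μm in diameter, and the labels give 18 dpp as age and C57BL/6 as strain. There were 3 samples of each genotype, which the labels call biological triplicates. XX oocytes have both X chromosomes and came from littermates of the XY females, whose fathers were B6.Y-TIR males mated to B6 females. XY oocytes carry 1 X and the TIR Y chromosome in a female. XO oocytes carry 1 X chromosome and came from other crosses, of Paf carrier males, backcrossed from C3H/HeSnJ to B6, with B6 females. Cross and genotype can therefore not be told apart for XO oocytes, and XX littermates of the XO females were not analysed here.

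A cytosolic ribosome joins a small subunit, which decodes the mRNA, with a large subunit, which forms the peptide bond. Most ribosomal proteins are present once in each ribosome, and the stalk proteins are an exception. A growing oocyte builds up a store of ribosomes, and of the mRNAs they will translate, that it uses after transcription has stopped. In most cell types ribosomal protein mRNAs are abundant and are regulated together at translation through a 5′ terminal oligopyrimidine (TOP) motif, a cytosine followed by a run of pyrimidines at the start of the mRNA, which makes translation depend on the mTOR pathway and on the protein Larp1.

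Start sites are shown for members at the ends of the patterns described below, so that the pyrimidines at the annotated start can be read beside their values. The promoter table of RefSeq (GRCm38.p6) held 59 of the 82 members by symbol. Each line gives 25 bases before and 25 bases from the annotated start, 5′ to 3′ on the strand of the gene. Capitals mark the longest run of C or T that touches the 10 bases on either side of the start, where it has at least 8 bases. The sequences of Rps3, Rpl37a, Rpl41 and Rpl35 belong to members that were much higher in sample 3 than in sample 1 of each genotype. They lie at chr7:99483685-99483734 (minus strand), chr1:72711235-72711284 (plus strand), chr10:128549144-128549193 (minus strand) and chr2:39005107-39005156 (minus strand).

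Rps3: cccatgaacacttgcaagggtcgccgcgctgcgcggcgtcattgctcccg
Rpl37a: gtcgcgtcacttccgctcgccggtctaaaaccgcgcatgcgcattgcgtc
Rpl41: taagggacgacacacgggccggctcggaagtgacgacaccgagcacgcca
Rpl35: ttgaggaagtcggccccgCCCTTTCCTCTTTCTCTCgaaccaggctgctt

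The sequences of Rps13, Rps25, Rpl27a and Rps24 belong to members that were lower in sample 3 than in sample 1 of each genotype. They lie at chr7:116334166-116334215 (minus strand), chr9:44407689-44407738 (plus strand), chr7:109519170-109519219 (plus strand) and chr14:24490653-24490702 (plus strand).

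Rps13: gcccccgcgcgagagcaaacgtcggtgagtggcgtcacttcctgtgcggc
Rps25: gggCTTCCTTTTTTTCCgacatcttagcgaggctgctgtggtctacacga
Rpl27a: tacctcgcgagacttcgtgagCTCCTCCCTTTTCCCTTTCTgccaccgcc
Rps24: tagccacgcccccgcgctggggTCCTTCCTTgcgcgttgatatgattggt

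The sequences of Rplp0, Rplp2 and Rpl18 belong to members that were barely detected. They lie at chr5:115559442-115559491, chr7:141447626-141447675 and chr7:45718046-45718095, all on the plus strand.

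Rplp0: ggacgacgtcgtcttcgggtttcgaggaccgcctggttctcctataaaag
Rplp2: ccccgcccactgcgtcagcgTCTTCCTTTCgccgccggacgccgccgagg
Rpl18: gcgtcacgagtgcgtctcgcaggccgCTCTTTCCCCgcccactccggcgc

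A pyrimidine run of at least 8 bases was found at 42.9% of the 70 listed starts of members, against 13.7% of all 32851 starts in the table, searched on the strand of the gene only and for no other motif. Some genes have more than 1 listed start, and a start without the run says only that these letters are not in this window. Among members higher in sample 3 of every genotype, 55.6% of 27 starts had the run, and among those lower, 71.4% of 7 starts had it, so runs occurred on both sides.

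Genes received between 2130145 and 3157338 unique molecular identifiers (UMIs) per sample, and 18334 to 21044 genes had at least 1. A UMI marks the 5′ end of 1 captured cDNA whatever the length of the transcript, so levels are not divided by length. They are given as normalized CPM, the UMI count divided by the gene total times a factor from the ERCC spike-in RNAs. The labelled cell type was checked first. All 13 oocyte markers were above 1 normalized CPM on average, and their sum lay between 19168 and 53335 per sample. The summed level of the 12 granulosa cell markers, of which 8 had values and 4 exceeded 1 normalized CPM, ran from 46.6 to 66.1 for XX, 54.4 to 64.9 for XO and 56.0 to 90.9 for XY. Of the 4 immune markers 2 had values, Csf1r with 231 UMIs in all and Cd68 with 3, so their sum is nearly that of Csf1r alone. The immune markers summed to 0.518 in XO1 and 22.6 in XO3, against 7.35 to 14.9 in XX samples, and their part in the results was not tested. The samples XO1 and XY1 stood apart from the other replicates in the members' levels, as described below, and results are given with and without them. The study, which compared samples by highly expressed and variable genes, instead found XX1, XO2 and XY1 less similar to their other replicates. The labels name no batch. In the order given by the library names, XO1 comes first, XO2 and XO3 come last, and the XX and XY samples lie between. The part of this order in the results was not tested.

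Ribosomal protein genes took a small share of the transcripts. Their part of all gene UMIs was 1.38% ± 0.0975 for XX (SD over 3 samples), 1.199% ± 0.316 for XO and 1.39% ± 0.0934 for XY oocytes. In pooled oocytes, fewer oocytes that express a gene and less of its RNA per oocyte cannot be told apart. Single samples reached 1.46, 1.42 and 1.27% in XX, 0.846, 1.30 and 1.45% in XO, and 1.29, 1.48 and 1.41% in XY, in the order of their numbers. XO1 was the lowest sample, at 0.846% with a Wilson interval (95%) of 0.834–0.858%, and the other samples lay between 1.27 and 1.48%. The intervals cover counting error alone. The share of XO2 and XO3 overlapped with those of XX and XY, so the genotypes were not separated by it. With 3 samples per genotype no exact permutation test can go below p = 0.1. The ratio of large to small subunit UMIs was 1.30 in XO1 and 1.83 in XY1 against 2.16–2.63 in the other 7 samples.

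Levels of the members were very uneven. Rpl5, Rpl17, Rpl7 and Rpl21 were the highest, with means over the 9 samples of 1788, 1378, 1257 and 1028 normalized CPM. The mean was at least 100 normalized CPM for 28 members and at least 10 for 54, and it was below 1 for 10. The median of the members was 33.1 normalized CPM, against 17.5 over all 10993 genes tested. The 3 highest members, Rpl5, Rpl17 and Rpl7, held 33.0% of the members' normalized CPM, and the 10 highest held 69.1%. The median was 49.0 normalized CPM for the large and 16.4 for the small subunit.

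**Figure D1:**
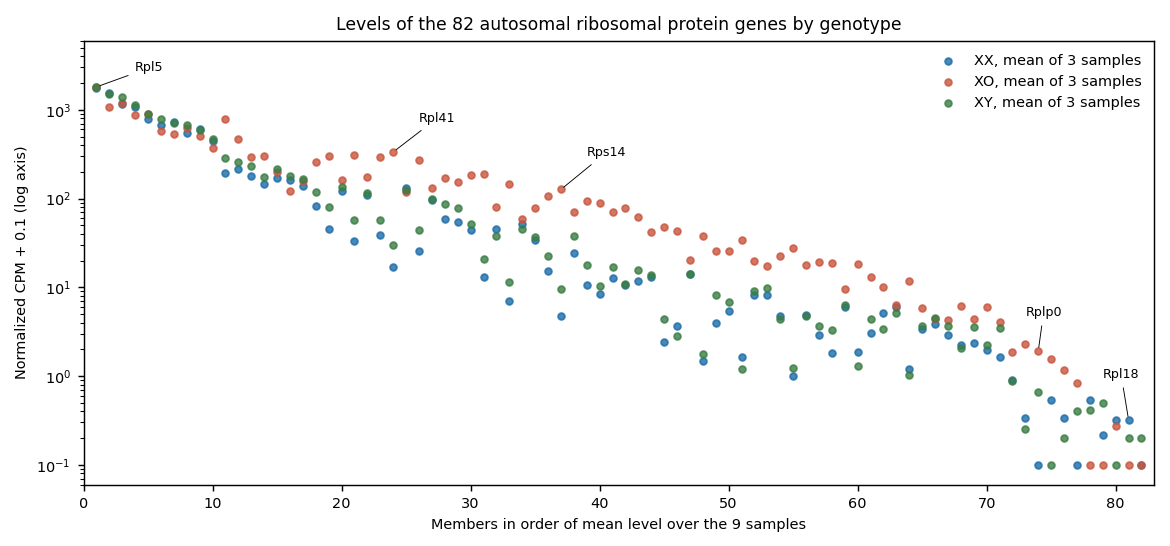
Mean level of each of the 82 members in XX, XO and XY oocytes (normalized CPM + 0.1, log axis), with the members in order of their mean over the 9 samples. Levels run from 1788 normalized CPM on average for Rpl5 to below 1 for 10 members, and XO means (red) lie above the others for many members in the middle of the order.

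Rpl5 carries the 5S rRNA into the large subunit together with Rpl11. Rpl5 (ENSMUSG00000058558.12, chr5:107900502-107909005) had 1854, 1939 and 1519 normalized CPM in XX, 1378, 1912 and 2061 in XO and 2118, 1733 and 1580 in XY samples. The genotypes overlapped, and the mean was 1771 ± 222 for XX, 1784 ± 359 for XO and 1810 ± 277 for XY (SD, n = 3). Its partner was much lower. Rpl11 (ENSMUSG00000059291.15, chr4:136028265-136053428) had 50.9, 32.9 and 49.0 normalized CPM in XX, 15.0, 182 and 362 in XO and 24.6, 45.9 and 84.2 in XY samples. XO2 and XO3 were above all other samples and XO1 below all.

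Rpl17 is a large subunit protein at the exit of the peptide tunnel. Rpl17 had 1796, 1517 and 1298 normalized CPM in XX, 694, 1212 and 1328 in XO and 1292, 1730 and 1540 in XY samples, and XO1 was the lowest. Rpl7 had 1359, 1408 and 753 normalized CPM in XX, 1912, 825 and 830 in XO and 2098, 1221 and 906 in XY samples. Here XO1 and XY1 were the highest of all 9 samples, the opposite of Rpl17.

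Several members that are parts of every ribosome were barely detected. The stalk proteins Rplp0, Rplp1 and Rplp2, which bind translation factors at the large subunit, had 15, 9 and 12 UMIs in the 9 samples together. Rplp0 had no UMI in the XX samples, which allows up to 0.337 normalized CPM there, 2, 2 and 6 in the XO and 1, 0 and 4 in the XY samples. Rplp1 had 1, 1 and 0 UMIs in XX, 3, 1 and 2 in XO and 0, 0 and 1 in XY samples. Rplp2 had 1, 1 and 2 UMIs in XX, 2, 1 and 5 in XO and none in XY samples, which allows up to 0.364 normalized CPM. Rpl18 had 3 UMIs in all, Rpl36 6, Rpl29 7 and Rpl8 15. No UMI of Rpl18 was found in XO samples, which allows up to 0.533 normalized CPM. Rpsa, the laminin receptor protein of the small subunit, had 3.21, 1.05 and 2.13 normalized CPM in XX, 2.07, 4.14 and 11.9 in XO and 0.930, 2.28 and 2.72 in XY samples, from 70 UMIs. These limits cover counting error, and whether UMIs of these members were assigned elsewhere was not tested.

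The lowest members with a UMI were Rps12l1 with 3 UMIs, Rpl18 with 3 and Rpl32l with 1. Rps12l1, Rpl32l, Rps4l and Rpl6l are pseudogenes in Gencode vM21, 3 of them processed and 1 transcribed processed, and the other 78 members are annotated as protein coding. Transcript length, with a median of 651 bases among the 54 members of at least 10 normalized CPM, showed little rank correlation with level (rho = 0.07), and the length of the first exon none to speak of (rho = 0.01), while GC content had rho = -0.39. Over all 6993 autosomal genes of that level with a Gencode transcript the values were -0.04, -0.08 and -0.20. These are correlations across genes, which share the libraries and are not independent.

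The largest differences among samples were within genotypes. Samples 1 and 3 of each genotype differed in opposite ways for different members. The order of the members in this difference was similar in the 3 genotypes, while its size was not. Of the 54 members of at least 10 normalized CPM, 32 were higher in sample 3 than in sample 1 in all 3 genotypes (59.3%, against 35.8% of 7002 autosomal genes of that level), 7 were lower in all 3 (13% against 33.1%) and 15 were mixed. The direction was read from the values, so no test is given. On the scale of log2(normalized CPM + 0.5), the median member differed by 3.29 between XO3 and XO1, by 1.23 between XY3 and XY1 and by 0.31 between XX3 and XX1, against 0.46, 0.13 and -0.12 over those autosomal genes. The range over members was -1.91 to 8.04 in XO, -1.21 to 4.25 in XY and -0.93 to 2.04 in XX. In XO, 35 members differed by more than 2 log2 units upwards (64.8% against 23.9% of autosomal genes) and 6 by more than 1 downwards (11.1% against 16.2%).

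**Figure D2:**
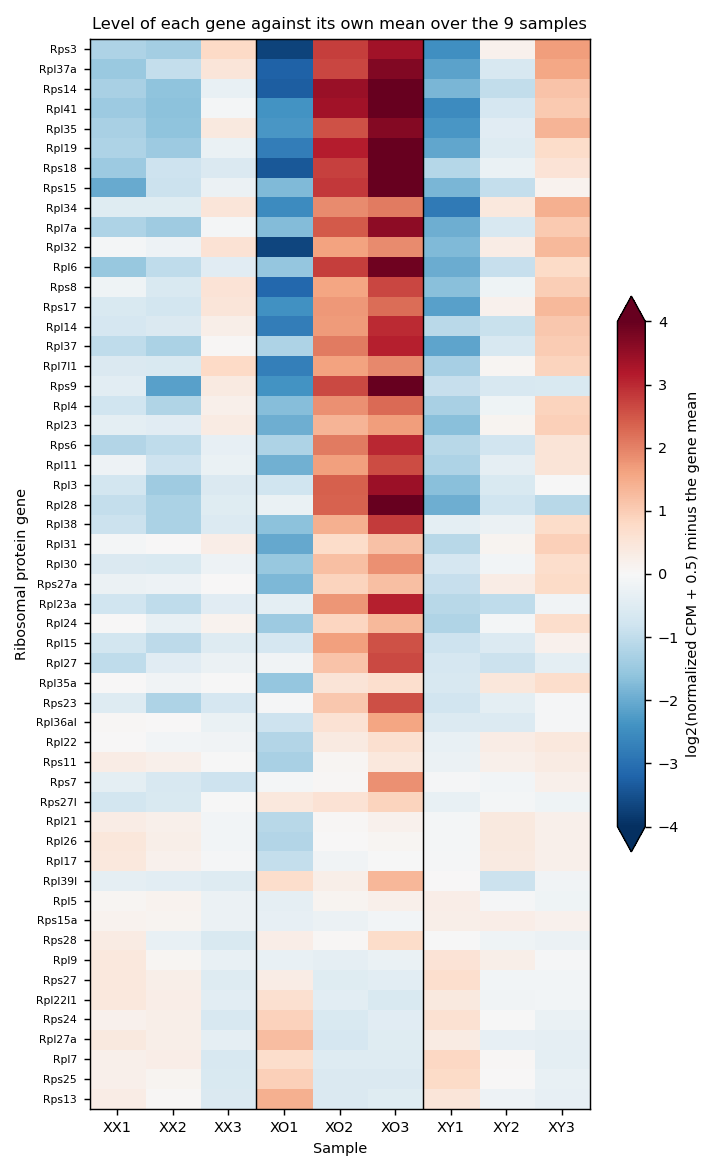
Level of each of the 54 members of at least 10 normalized CPM on average, as log2(normalized CPM + 0.5) minus its own mean over the 9 samples, with colours ending at 4 and -4. Members are in order of the mean difference of samples 3 and 1, from Rps3 at the top to Rps13 at the bottom, and XO1 and XY1 are low where XO2, XO3 and XY3 are high.

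The 32 members that were higher in sample 3 hold 10 small and 22 large subunit genes. Their summed level was 482 normalized CPM in XO1, 6103 in XO2 and 10035 in XO3, 658, 1736 and 3480 in the XY samples, and 1232, 1142 and 2070 in the XX samples. The other 7 members, Rpl7, Rpl22l1, Rpl27a, Rps13, Rps24, Rps25 and Rps27, summed to 5608, 2212 and 2291 in XO, 5306, 3196 and 2652 in XY and 3806, 3753 and 2115 in XX samples. The 15 mixed members, with Rpl5, Rpl17 and Rpl21 among them, varied least, between 3948 in XO1 and 7982 in XO3. The genotypes overlapped in all 3 sums. The sets of 32 and 7 were chosen by XO3 lying above or below XO1, and likewise in XY and XX. That order is therefore built into the sums, while the place of the remaining sample is not. XO1 lay below XO2 in the sum of the 32 (482 against 6103) and above it in the sum of the 7 (5608 against 2212). XY1 lay likewise, with 658 against 1736 and 5306 against 3196. In XX the corresponding sums were close, with 1232 against 1142 and 3806 against 3753.

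Single members, chosen after their values were seen, show how far samples of a genotype differed. Rps14, a small subunit protein beside the decoding centre, had 3.56, 2.80 and 7.62 normalized CPM in XX, 0.518, 111 and 268 in XO and 2.32, 4.56 and 21.7 in XY samples. XO1 rested on 1 UMI and XO3 on 475. Rps3, a small subunit protein at the mRNA entry, had 22.1, 20.3 and 92.6 normalized CPM in XX, 3.62, 360 and 552 in XO and 9.30, 60.5 and 170 in XY samples. Rps13 went the other way, with 120, 100 and 64.9 normalized CPM in XX, 262, 65.1 and 69.4 in XO and 136, 84.3 and 77.6 in XY samples. Rps24 had 899, 950 and 514 normalized CPM in XX, 1537, 528 and 592 in XO and 1229, 791 and 674 in XY samples. In each of these members the XX samples overlapped with the range of the XO samples.

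Across the 54 members the difference of XO3 and XO1 had a rank correlation of 0.872 with that of XY3 and XY1 and 0.882 with that of XX3 and XX1, and the last 2 had 0.875. The 3 differences share no sample, while all points of a difference share its libraries. Over the 7002 autosomal genes the rank correlations were 0.894, 0.754 and 0.776, so this pattern was not confined to ribosomal protein genes. The mean of the 3 differences had a rank correlation of 0.47 with the GC content of the transcript among members and 0.42 among the autosomal genes, 0.14 and -0.03 with its length, and -0.15 and -0.04 with the length of the first exon. What this shared pattern comes from was not tested.

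**Figure D3:**
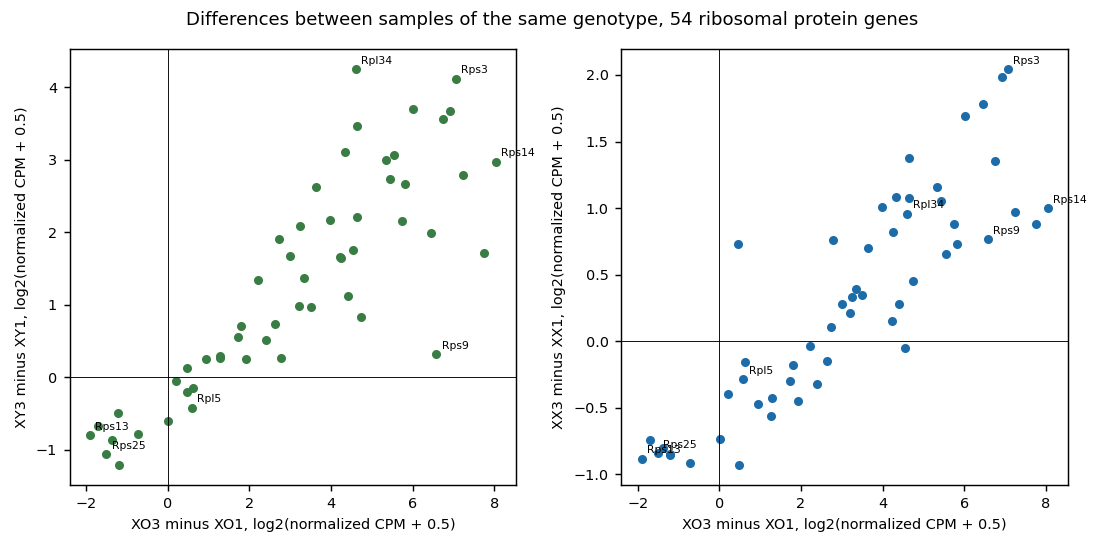
Difference of samples 3 and 1 for the 54 members on the log2(normalized CPM + 0.5) scale, XO on the horizontal axes, XY and XX on the vertical axes. The points rise together, with rank correlations of 0.872 for XY and 0.882 for XX, and the range is widest in XO, from -1.91 to 8.04.

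Transcript levels were then compared between genotypes with edgeR's quasi-likelihood test on the UMI counts, scaled by the ERCC factors behind the normalized CPM. A gene was called at an unadjusted p below 0.05, the threshold of the study. The filter on low counts kept 10993 genes and 63 of the 82 members. The 19 left out had means of at most 13.6 normalized CPM and comprised, with the barely detected ones above, Rps15, Rpl28, Rps19, Rps26, Rpl13, Rps10, Rpl6l, Rps4l and Rpl10l. Since levels scale with the spike-in factors, the median of all tested genes was itself -0.46 on the log2 scale for XX over XO, -0.19 for XX over XY and -0.30 for XY over XO.

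Many ribosomal protein genes were lower in XX than in XO oocytes. Of the 63 tested members 27 were called lower in XX (42.9%), against 16.7% of all tested genes, and none was called higher, against 1.4%. The median log2 fold change of the 63 was -1.28 and that of all genes -0.46. The summed level of the oocyte markers was 19168 in XO1 and 53335 in XO3, against 26554–28007 in XX samples, and its part in this result was not tested. Both subunits contributed, with 11 of 25 small and 16 of 38 large subunit members lower. No member passed Benjamini-Hochberg adjustment over all genes, and the smallest adjusted p of a member was 0.203 in edgeR. DESeq2, with all 82 members in the fit, called 30 lower and 5 higher without adjustment (4.66 and 1.84% of all genes), and 10 of the 71 with an adjusted p lower after it (0.766% of all genes with one). Scaling by spike-in totals left 5 of 63 lower (0.482% of all genes).

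The 5 members of smallest p were Rps23, Rpl23a, Rpl3, Rps2 and Rpl15. Rps23, a small subunit protein of the decoding centre, had 13.9, 8.403 and 12.5 normalized CPM in XX and 19.7, 43.4 and 124 in XO samples. The genotypes did not overlap, and the log2 fold change was -2.42 ± 0.60 (SE, edgeR adjusted p = 0.203). Rpl23a, which receives the signal recognition particle at the tunnel exit, had 9.97, 8.403 and 12.8 normalized CPM in XX and 13.5, 61.5 and 158 in XO samples, again without overlap. Its log2 fold change was -2.89 ± 0.74. Rps2 had 3.92, 2.10 and 2.44 normalized CPM in XX and 4.14, 13.4 and 40.6 in XO samples, and its log2 fold change was -2.76 ± 0.74, with the same adjusted p of 0.203 as Rps23 and Rpl23a. In all 3 members XO1 was the XO sample nearest to the XX samples. Without XO3 the log2 fold changes were -1.44 for Rps23, -1.84 for Rpl23a and -1.63 for Rps2, and with sva covariates the calls of Rps23 (-0.70) and Rps2 (-0.32) were lost.

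Rpl3, a core protein of the peptidyl transferase centre, had 9.26, 5.602 and 10.4 normalized CPM in XX and 8.80, 84.3 and 173 in XO samples. Its log2 fold change was -3.39 ± 0.88 (SE), while XO1 lay within the XX samples. Rpl15 had 12.8, 10.2 and 14.9 normalized CPM in XX and 13.5, 69.3 and 128 in XO samples, with XO1 within the XX samples, and its log2 fold change was -2.47 ± 0.67. Rps6, the small subunit protein phosphorylated downstream of mTOR, had 30.3, 33.3 and 53.9 normalized CPM in XX and 29.0, 288 and 561 in XO samples. It was called with a log2 fold change of -2.90 ± 0.88, and XO1 lay below all XX samples. Without XO3 the log2 fold changes were -2.46 for Rpl3, -1.71 for Rpl15 and -2.01 for Rps6, all still called. With spike-in totals the calls of Rpl15 and Rps6 were lost, as were those of Rps23, Rpl23a and Rps2, while that of Rpl3 was kept. Rpl11 was called as well, at -2.07 ± 0.87, with XO1 again below the XX samples, and its call was lost when any of 6 single samples was left out.

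The position of XO1 divided the 27 members called lower in XX. XO2 and XO3 lay above all XX samples in every one of them. The call was made on these same samples and favours this outcome, which was not counted over the other genes called. XO1 lay above the XX samples in 8, Rpl23a, Rpl27, Rpl39l, Rps2, Rps7, Rps21, Rps23 and Rps27l, within their range in 6, and below all of them in 13, among them Rps14, Rps18, Rpl19 and Rpl41. Samples of XX and XO did not overlap, with XO higher, in 9 of the 63 tested members (14.3%), against 13.6% of all genes tested, and with XX higher in none, against 2.79%. Without XO1 the test called 45 of 68 members lower in XX (34.2% of all genes), 39 of them after adjustment (24.2% of all genes), and without XO3 it called 15 of 63 (7.95% of all genes). Without XO1 and XY1, a setting chosen after the data were seen, 48 of 68 were lower and 2 higher, against 37.6 and 4.1% of all genes.

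**Figure D4:**
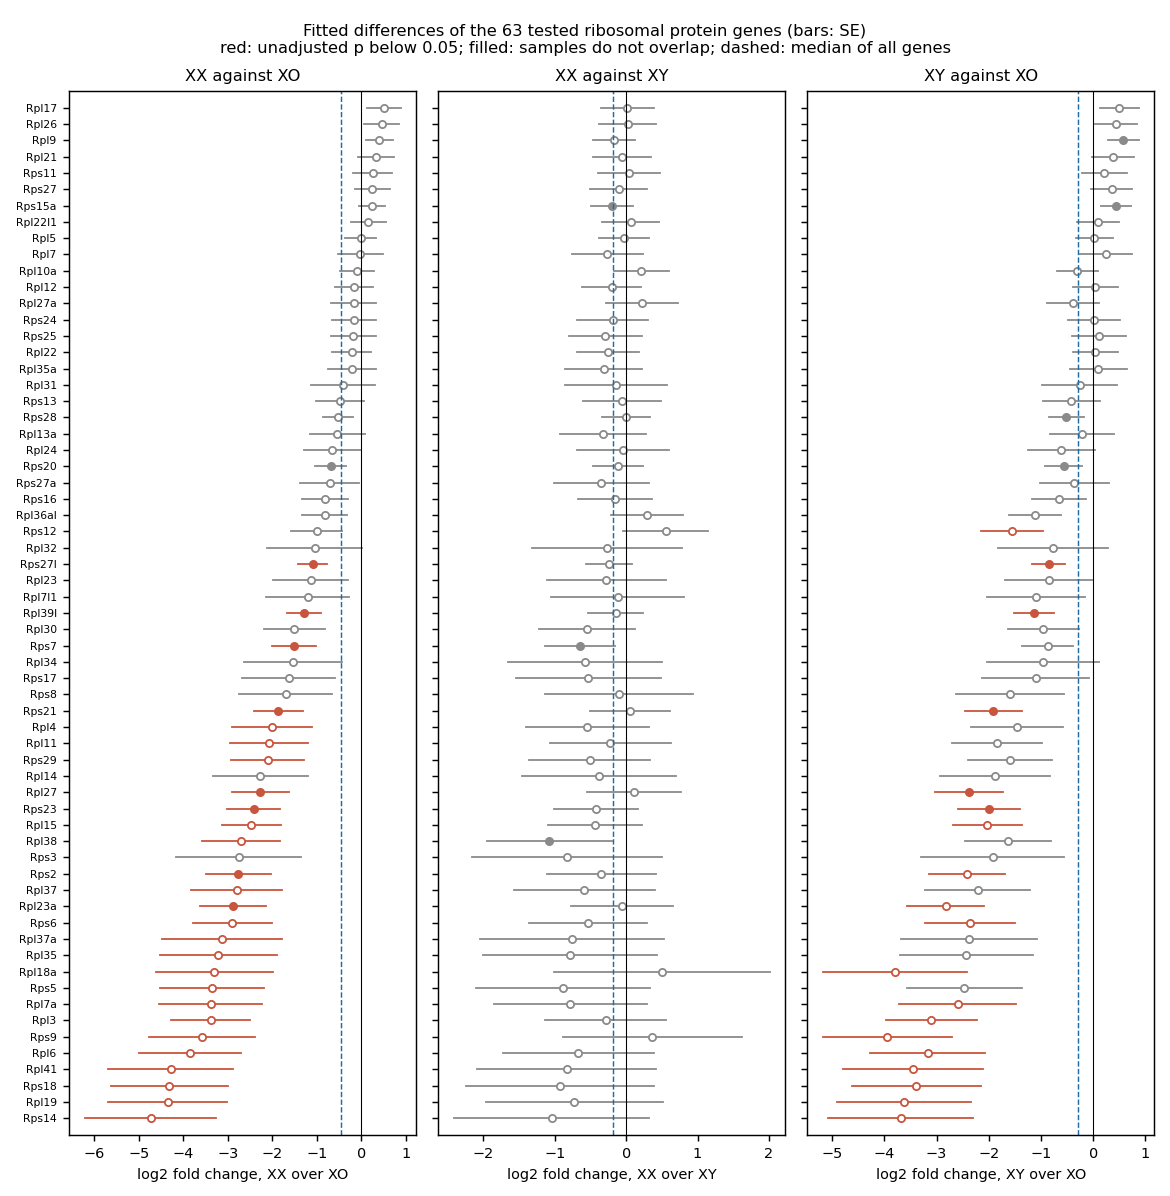
Log2 fold change with its SE for the 63 tested members in XX over XO, XX over XY and XY over XO (horizontal axes), with red for an unadjusted p below 0.05, filled points where samples of the genotypes do not overlap, and a dashed line at the median of all genes. Members run from Rpl17 at the top to Rps14, at -4.73 for XX over XO, at the bottom, and no member is red in XX over XY.

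Fewer members were lower in XY than in XO oocytes. The test called 19 of 63 lower in XY (30.2%), against 8.24% of all genes, and none higher, against 1.69%. The median log2 fold change was -1.09, and -0.30 over all genes. This contrast uses the same XO samples as the one of XX and XO. No member passed adjustment in edgeR (smallest adjusted p = 0.485), where 0.0364% of all genes were higher in XY and none lower. DESeq2 called 28 lower and 3 higher without adjustment (3.31 and 1.41% of all genes) and 3 of 70 lower with it (0.206% of all genes), and spike-in totals left 8 of 63 lower (0.664% of all genes). The 5 members of smallest p were Rpl23a, Rpl27, Rpl3, Rps21 and Rps23. Rpl27 had 4.18, 3.58 and 5.13 normalized CPM in XY and 6.21, 16.03 and 45.7 in XO samples, without overlap, and its log2 fold change was -2.38 ± 0.65 (SE). Rps21 had 3.25, 4.23 and 6.34 normalized CPM in XY and 6.73, 15.0 and 31.6 in XO samples, and its log2 fold change was -1.91 ± 0.55. XO1 and the highest XY sample were close in both. Without XO3 the log2 fold changes were -1.36 for Rpl27 and -1.21 for Rps21. With spike-in totals the call of Rps21 was lost and that of Rpl27 kept.

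XO2 and XO3 lay above all XY samples in every one of the 19, and XO1 lay above them in 5, within in 8 and below in 6. Here too the call was made on these same samples and favours a high XO2 and XO3. Compared within pairs of the same number, XO was above XY in all 3 pairs in 13 of the 19 (68.4%), against 76% of the 906 genes called lower in XY. The same held for 18 of the 63 tested members (28.6%), against 25.6% of all genes. No label gives this pairing, and across genes the deviations of XO2 correlated more with XY3 (0.707) than with XY2 (0.272). The samples did not overlap, with XO higher, in 7 of 63 members (11.1%), against 6.34% of all genes. In Rpl9 and Rps15a XY was higher without overlap (3.17% of 63, against 3.88% of all genes). Rpl9 had 219, 176 and 144 normalized CPM in XY and 123, 116 and 123 in XO samples, and it was not called (log2 fold change 0.57 ± 0.30). Without XO1 41 of 68 members were lower in XY (27.6% of all genes), and without XO3 only Rpl3, Rpl23a, Rpl27, Rps21 and Rps23 of 63 (2.35% of all genes). Without XO1 and XY1 it was 43 of 68, against 25.5% of all genes.

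With the ERCC factors no member differed between XX and XY oocytes at the threshold. None of the 63 tested members was called in edgeR in either direction, against 1.41% of all genes higher in XX and 4.39% lower. After adjustment 0.0182% of all genes were higher and 0.0637% lower, with no member among them. DESeq2 called none either (1.14 and 1.35% of all genes). With sva covariates 4 were higher and 3 lower in XX (9.41 and 10.6% of all genes), 1 each after adjustment (2.99 and 3.6% of all genes). Limma on the batch-regressed values called 3 higher and 2 lower (10.2 and 12.2% of all genes), and without a filter 3 of 82 were lower (3.52% of all genes). The smallest unadjusted p was 0.221, for Rps7. Rps7 had 28.5, 23.8 and 20.7 normalized CPM in XX and 36.3, 34.5 and 43.2 in XY samples, without overlap, with a log2 fold change of -0.64 ± 0.49 (SE). Rpl38 and Rps15a also did not overlap, so that 3 of 63 were separate with XY higher (4.76%), against 11.7% of all genes, and none with XX higher, against 4.15%. The median log2 fold change was -0.26, close to the -0.19 of all genes. Without XO1 and XY1 14 of 68 members were lower in XX, against 11.9% of all genes.

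Among other members with known roles, Rps27a, which is made as a fusion with ubiquitin, had 168, 172 and 204 normalized CPM in XX, 57.5, 371 and 461 in XO and 106, 246 and 340 in XY samples. XO1 was the lowest and XO3 the highest of the 9 samples. It was called in no contrast. Rps27, a zinc finger protein of the small subunit, had 547, 482 and 290 normalized CPM in XX, 507, 297 and 305 in XO and 655, 384 and 381 in XY samples, and all genotypes overlapped.

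**Figure D5:**
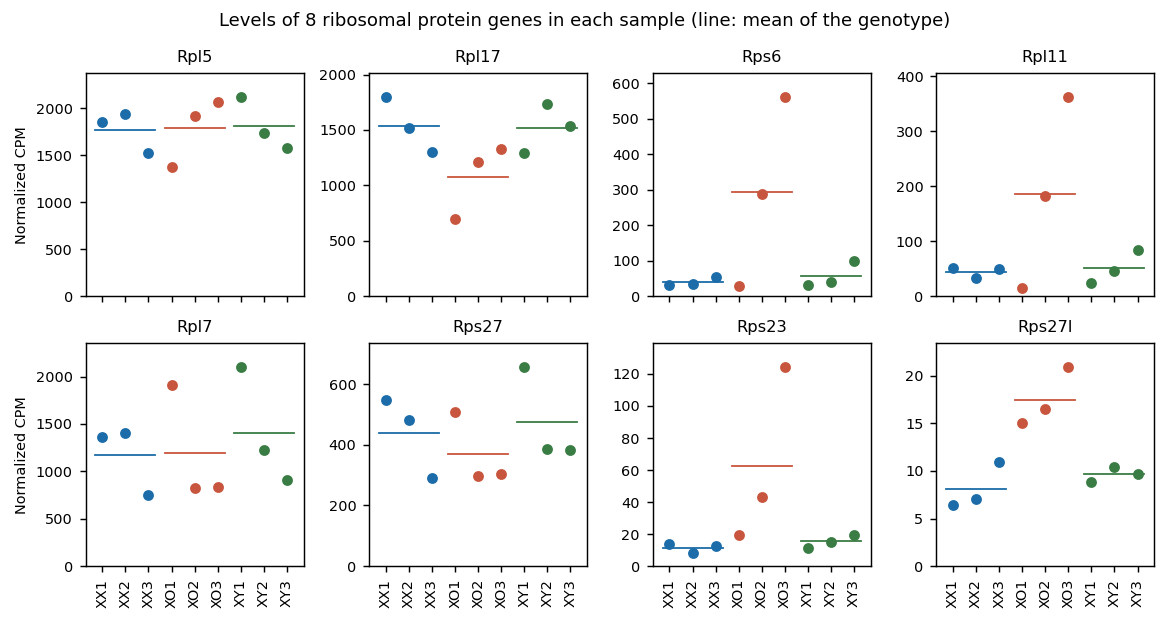
Level of 8 members in each sample (normalized CPM, linear axes from 0, a line at the mean of each genotype). XO3 reaches 561 for Rps6 and 362 for Rpl11 while XO1 stays at 29.0 and 15.0, Rpl7 is highest in XO1 and XY1, and the XO samples of Rps23 and Rps27l lie above all XX and XY samples. For Rps23 XO1 and XY3 are nearly equal, at 19.7 and 19.6.

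Paralogs of ribosomal protein genes, some of which are used in germ cells or in single tissues, were set against their parent genes in the same samples. Rpl3l was not analysed here. Rps27l, the paralog of Rps27, had 6.41, 7.003 and 11.0 normalized CPM in XX, 15.0, 16.5 and 20.9 in XO and 8.83, 10.4 and 9.66 in XY samples. All 3 XO samples were above all others, with a mean of 17.5 ± 3.05 in XO against 8.13 ± 2.48 in XX and 9.64 ± 0.793 in XY (SD, n = 3). The log2 fold change was -1.09 ± 0.32 (SE) for XX over XO and -0.85 ± 0.32 for XY over XO. The second call was lost without XO3, XY1 or XY3. Both calls were lost with DESeq2 and with gene-based TMM factors, where the log2 fold changes were -0.63 and -0.54. They were also lost with spike-in totals and with limma on batch-regressed values, and the second without a filter. Rpl39l, the paralog of the X-linked Rpl39, had 8.55, 8.05 and 7.62 normalized CPM in XX, 18.1, 12.9 and 28.2 in XO and 11.2, 5.86 and 9.96 in XY samples. XO did not overlap with the others, and the log2 fold change was -1.28 ± 0.38 for XX over XO and -1.14 ± 0.38 for XY over XO. Both calls were lost with spike-in totals (-0.42 and -0.94) and with sva covariates (-0.14 and -0.59), and the second also without XO3 or XY2.

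Rpl39 itself went another way, with 1310, 1291 and 682 normalized CPM in XX, 1436, 364 and 410 in XO and 867, 534 and 460 in XY samples. XO1 was the highest and XO2 the lowest of the 9 samples, and it was called in no contrast. The ratio of Rpl39l to Rpl39 UMIs was 0.00653, 0.00624 and 0.0112 in XX, 0.0126, 0.0355 and 0.0688 in XO and 0.0129, 0.0110 and 0.0217 in XY samples, and XX lay below XO. Rpl22l1 and Rpl22 had 2862 and 3560 UMIs in all. Their ratio was 1.08, 1.09 and 0.678 in XX, 2.89, 0.468 and 0.352 in XO and 1.31, 0.616 and 0.568 in XY samples. XO1 thus had the most Rpl22l1 and XO3 the least in relation to Rpl22, and the genotypes overlapped.

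Rpl22l1 had 160, 145 and 88.7 normalized CPM in XX, 185, 88.4 and 79.0 in XO and 156, 110 and 110 in XY samples. Rpl7l1, related to Rpl7 in sequence, had 22.1, 21.7 and 58.2 normalized CPM in XX, 4.66, 103 and 129 in XO and 13.01, 35.2 and 62.2 in XY samples. Rpl7l1 and Rpl7 were thus opposite in XO1, where the ratio of their UMIs was 0.00244, against 0.125 in XO2 and 0.155 in XO3. Rpl36al, the autosomal paralog of the X-linked Rpl36a, had 49.5, 48.3 and 39.6 normalized CPM in XX, 26.9, 71.9 and 144 in XO and 32.5, 32.6 and 46.8 in XY samples. The ratio of Rpl36al to Rpl36a UMIs was 0.202, 0.203 and 0.200 in XX, 0.406, 0.582 and 1.10 in XO and 0.307, 0.223 and 0.306 in XY samples, without overlap between XX and the other genotypes. Rpl10l, which replaces Rpl10 in the male germ line, had 5 UMIs in all, and Rps4l 24.

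The X-linked ribosomal protein genes were set beside the members. Rps4x, a small subunit protein, had 2376, 2064 and 1825 normalized CPM in XX, 552, 995 and 1031 in XO and 996, 1233 and 1063 in XY samples. XX lay above all other samples, and the log2 fold change was 1.28 ± 0.37 (SE) for XX over XO and 0.93 ± 0.37 for XX over XY. Rpl36a had 245, 238 and 198 normalized CPM in XX, 66.3, 124 and 131 in XO and 106, 146 and 153 in XY samples. Its log2 fold change was 1.09 ± 0.33 for XX over XO and 0.75 ± 0.33 for XX over XY. Both were called higher in XX than in XO. The calls for XX over XY were lost when any of 5 single samples was left out for Rps4x, and any of 7 for Rpl36a.

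Rpl10, which joins the large subunit late in its assembly, had 26.0, 24.9 and 93.2 normalized CPM in XX, 10.4, 211 and 346 in XO and 8.83, 26.0 and 76.7 in XY samples, and was called in no contrast. Of 6 tested ribosomal protein genes outside the members, these 4 with Rps3a1 and Rack1, 2 were called higher (Rps4x, Rpl36a) and 1 lower (Rack1) in XX than in XO, 2 were higher in XX than in XY, and none was called between XY and XO.

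Genes that make or use ribosomes were counted from lists chosen by function. Of 82 tested assembly factors, 17 were lower in XX than in XO (20.7%, near the 16.7% of all genes) and none higher, 1 was lower in XX than in XY, and 7 were lower in XY than in XO (8.54% of the list, against 8.24%). Their median log2 fold change was -0.50 for XX over XO. Rsl1d1, a nucleolar protein with a ribosomal L1 domain, had 116, 110 and 112 normalized CPM in XX, 241, 195 and 285 in XO and 144, 112 and 117 in XY samples. XO lay above all others, with log2 fold changes of -1.09 ± 0.27 (SE) for XX over XO and -0.95 ± 0.27 for XY over XO. Both calls were lost with spike-in totals. Brix1, needed for the large subunit, had 50.2, 49.4 and 44.5 normalized CPM in XX, 92.7, 88.4 and 100.5 in XO and 84.6, 63.2 and 74.3 in XY samples. No genotype overlapped with another, and its log2 fold change was -0.97 ± 0.24 for XX over XO and -0.62 ± 0.24 for XX over XY. The latter call was lost when any of 5 single samples was left out, and both were lost with spike-in totals. Sbds, which releases a block from new large subunits, had 4.18, 5.86 and 5.74 normalized CPM in XY and 7.77, 12.4 and 16.4 in XO samples, and its log2 fold change was -1.19 ± 0.41. The call was lost without XO3 (-0.92) or XY1 (-1.06), and with limma and spike-in totals.

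Of 16 tested other genes with a TOP motif, 3 were lower in XX than in XO (18.8%, near the 16.7% of all genes), 2 were lower in XY than in XO (12.5% against 8.24%) and none was called between XX and XY. The median log2 fold change was -0.69 for XX over XO, between that of all genes and that of the members. Naca, a chaperone of nascent chains, had 42.4, 38.5 and 85.0 normalized CPM in XX, 52.8, 429 and 847 in XO and 38.6, 49.8 and 130 in XY samples, and its log2 fold change was -2.999 ± 0.89 (SE) for XX over XO and -2.60 ± 0.87 for XY over XO. XO1 lay within the XX samples. Without XO3 the log2 fold changes were -2.12 and -1.72, and the second call was lost then and without XY1 or XY2. Both calls of Naca were lost with spike-in totals. Tpt1, a calcium binding protein, had 18.5, 19.6 and 25.3 normalized CPM in XX, 38.3, 32.6 and 33.3 in XO and 22.8, 22.5 and 24.5 in XY samples. XO lay above all others, and the log2 fold change was -0.71 ± 0.25 for XX over XO and -0.58 ± 0.25 for XY over XO. The first call was lost without XX1 or XX2, and the second when any of 8 single samples was left out, all but XX3. Both were lost with gene-based TMM factors, spike-in totals, DESeq2, no filter and limma.

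Of 17 tested genes that control TOP mRNAs or act in the mTOR pathway, 3 were lower in XX than in XO (17.6%, near the 16.7% of all genes), and 3 were lower (17.6% against 8.24%) and 1 was higher in XY than in XO. Cnbp, a nucleic acid binding protein that binds the TOP region, had 100.1, 79.8 and 79.2 normalized CPM in XX, 165, 136 and 234 in XO and 93.0, 62.8 and 83.3 in XY samples, with no overlap between XO and the others. Its log2 fold change was -1.04 ± 0.31 (SE) for XX over XO and -1.16 ± 0.31 for XY over XO. Both calls were lost with spike-in totals, and the first also with sva covariates. Mtor, the kinase of the pathway, had 7.12, 2.10 and 7.01 normalized CPM in XX and 5.18, 27.9 and 44.6 in XO samples, and its log2 fold change was -2.24 ± 0.78, with XO1 within the XX samples. The call was lost without XX2 (-1.86) or XO3 (-1.60), and with sva covariates, limma and spike-in totals. Max, the partner of Myc, had 21.4, 12.7 and 20.2 normalized CPM in XY and 2.59, 4.14 and 10.7 in XO samples, and was higher in XY by 1.64 ± 0.52 on the log2 scale, and by 2.41 without XO3. Its call was lost with spike-in totals.

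The direction of many differences turned with the processing. In the batch-regressed values, from which the authors removed components shared by samples, limma found 29 of 63 members above and 10 below XO in XX oocytes (36.1 and 7.4% of all genes), and 27 above and 8 below XO in XY oocytes (37.5 and 5.53% of all genes). This fit took no account of the components removed before, so its p-values can be too small. After adjustment 27.8% of all genes were higher in XX than in XO there, against none in the main test. Of the members named in this report for XX and XO, Rpl15, Rpl23a, Rpl27, Rpl3, Rpl39l, Rps2, Rps21, Rps23 and Rps6 were called lower in XX there, as in the counts. Rpl11 turned to a difference of 0.55, and Rpl37a, called lower in the counts, was also called higher in XX. Other members called lower in the counts lost the difference. Rps18 had batch-regressed values of 2.11, 3.03 and 1.78 in XX and 1.60, 2.19 and 2.21 in XO samples. Rps14, the member of lowest log2 fold change for XX over XO in the counts, overlapped between XX and XO there. It had batch-regressed values of 3.31, 3.35 and 2.93 in XX, 3.00, 3.52 and 2.99 in XO and 3.85, 3.40 and 3.63 in XY samples, a range of under 1 log2 unit. With gene-based TMM factors, which bring the median of all genes to -0.03 for XX over XO, 20 members were lower in XX and 4, Rpl9, Rpl17, Rpl26 and Rps15a, were higher, both against XO (6.02 and 5.9% of all genes).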

How the data were processed

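UMI counts, normalized CPM and batch-regressed log2 values of 9 samples were used, 3 per genotype. The deposited counts are UMIs of 5′ exons per gene, from reads that the authors placed on GRCm38 and Gencode transcripts using Hisat2. They deposited normalized CPM, a signal that was recomputed here from each count, the library's gene total and TMM factors of its ERCC RNAs (largest relative deviation 5.01e-15). They also deposited log2 values from which batch effects had been regressed out with sva and cleaningY. Transcripts were primed at the poly(A) tail. The XO column without a number was taken as XO1. The members and lists, and the named genes, were chosen with earlier results of these data known. Named are paralogs with their parents, the 5 called members of smallest p per contrast and direction, the 3 highest and lowest members, members of the stalk and of the 5S particle with Rps6, Rps27a and Rpsa, X-linked genes, and the 2 called genes of smallest p per list and contrast. Others were named after their values were seen.

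edgeR 4.0.16 (filterByExpr, quasi-likelihood F test, two-sided, spike-in factors, all 9 samples, common dispersion 0.201) was the main test on counts, in R 4.3.3. The study used limma with surrogate variables, and that test was not repeated here. The setting with sva covariates was edgeR with 2 surrogate variables. Limma 3.58.1 was run on the deposited log2 values with genotype alone, which takes no account of the components removed before. Other alternatives were DESeq2 1.42.0, other scalings, no filter, a replicate block and leaving out samples. The edgeR test was checked on counts simulated at the common dispersion. They held no pattern shared by samples of the same number, so that check does not cover the spread described above. Limits for genes without a UMI are 3 UMIs per genotype. Deviations of samples with the same number correlated across genes at 0.818, 0.272 and 0.766 between XO and XY, which were taken as paired by number from these values alone. XO2 correlated more with XY3 (0.707) than with XY2, so counts within pairs rest on an assumed pairing. For XX and XO the correlations of the same number were 0.450, -0.427 and 0.665. Of the 82 members 41 have processed pseudogenes among the gene names, and how UMIs of near-identical copies were assigned is not given in the sources used here.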

Additional observations from a re-analysis of the deposited data

Results flagged for a closer look

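Rows named as pseudogenes of ribosomal protein genes, which entered no comparison, held 16688 UMIs in the 9 samples. They were flagged as a signal outside the members. All 124 such rows had at least 1 UMI, and their sum amounted to 5.53% of the 301859 UMIs of the members. XX samples had 2461, 2142 and 1775 of these UMIs, XO samples 2596, 1054 and 966, and XY samples 1792, 1904 and 1998. XO1 had the most and XO3 the fewest, whereas XO1 had the fewest UMIs on the members.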

How the results depend on the processing

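The following counts are of members called at an unadjusted p below 0.05, with the share of all genes called the same way in parentheses. For XX against XO (0 higher and 27 lower in XX), they were 4 higher with gene-based TMM factors (5.9%), 5 higher with DESeq2 (1.84%), 7 higher and 12 lower with sva covariates (7.33 and 8.53%), 29 higher and 10 lower with limma on batch-regressed values (36.1 and 7.4%), 5 lower with spike-in totals (0.482%), 45 lower without a filter (13.5%), and 2 higher and 48 lower without XO1 and XY1 (4.1 and 37.6%). For XX against XY (0 and 0), they were 4 higher and 3 lower with sva covariates (9.41 and 10.6%), 3 higher and 2 lower with limma (10.2 and 12.2%), 3 lower without a filter (3.52%) and 14 lower without XO1 and XY1 (11.9%). For XY against XO (0 higher and 19 lower in XY), they were 3 higher with gene-based TMM factors (5.39%) and with DESeq2 (1.41%), 11 higher with sva covariates (10.1%), 27 higher and 8 lower with limma (37.5 and 5.53%), 8 lower with spike-in totals (0.664%), 43 lower without a filter (8.7%) and 43 lower without XO1 and XY1 (25.5%). Members tested numbered 82 without a filter and with DESeq2, 63 to 68 when samples were left out and 63 in the other settings. The cause of the changes was not tested.

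Leaving out 1 sample gave 15 to 45 members lower in XX than XO, 0 to 1 lower in XX than XY (Rpl38 without XO1, Rps7 without XO3), 5 to 41 lower in XY than XO, and 0 to 0 higher in each contrast. The extremes came without XO3 and without XO1. Of 39 calls of named genes 15 were lost without some single sample and none reversed. Spike-in totals lost 29 of the 39 calls, and also turned Brix1 to 0.081 (XX over XY) and Tpt1 to 0.30 (XX over XO). With sva covariates Rpl11 turned to 0.016 (XX over XO). With limma on batch-regressed values it turned to 0.55. The replicate block gave 25 members lower in XX than XO, 0 in XX than XY and 24 in XY than XO (21.1, 6.81 and 14.1% of all genes), and changed 1 call, that of Rpl11 in XX against XO, which has no pairing by number. The share of gene UMIs on members moved to 0.859, 0.878 and 0.887% in XX, XO and XY without the 3 highest members. Depth limits members below 1 normalized CPM, whose levels rest on 1 to 15 UMIs.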
